A study of Mus musculus with 10 samples.

Results

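The imprinted Dlk1-Dio3 miRNA cluster is represented here by 49 mature miRNAs of the 1139 in the deposited tables, chosen by name as rows whose hairpins lie in the cluster on mouse chromosome 12. Their levels come from small RNA sequencing of 10 heart samples from male C57Bl6N mice, each taken 1 week after transverse aortic constriction, an operation that narrows the aorta and loads the left heart with pressure. The study has 5 libraries from hearts labelled as knockouts of CITED4, a transcriptional co-regulator. Another 5 are from floxed controls, whose gene is flanked by recombination sites but whole. Every library was made after the operation, so none shows the cluster in an unloaded heart. The labels used here name no Cre line or promoter, so they do not tell in which cells CITED4 was removed. CITED4 messenger RNA is not counted by small RNA sequencing, so the genotypes rest on the labels alone. The labels do not state that libraries of a group are from separate animals, so each p-value measures only the spread among libraries, which may be technical. The RNA came from whole hearts, so fewer cells of a type and less RNA per cell cannot be told apart.

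Genes of this locus are imprinted, meaning that each is read from the chromosome of only one parent. The protein-coding genes Dlk1, Rtl1 and Dio3 are read from the paternal chromosome. The noncoding RNAs Meg3 (also called Gtl2), Rian and Mirg, together with the miRNAs, are read from the maternal chromosome. A miRNA hairpin is cut into a 5p and a 3p arm, and the arm that is kept guides silencing of messenger RNAs that pair with its seed, the bases 2 to 8 counted from its 5′ end. In muscle this locus is best known as a target of the transcription factor MEF2A, and its miRNAs miR-410 and miR-495 as stimulators of heart muscle cell division that act on Cited2, a relative of Cited4.

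The members all lay on the plus strand of chromosome 12 (GRCm38.p6), in 40 hairpins between 109571990 and 109743795, a stretch of 171806 bp. RefSeq gave a mature sequence for 46 of the 49. Names carry the mouse prefix mmu in the sequence lines and drop it in the text. The sequences of the 8 most abundant members are shown first, in falling order of level and with the seed in capitals, because they held most of the reads of the locus.

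mmu-miR-379-5p: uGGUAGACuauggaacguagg
mmu-miR-369-3p: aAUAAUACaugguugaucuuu
mmu-miR-541-5p: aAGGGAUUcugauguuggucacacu
mmu-miR-411-5p: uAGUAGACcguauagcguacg
mmu-miR-127-3p: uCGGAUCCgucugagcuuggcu
mmu-miR-382-5p: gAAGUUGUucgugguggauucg
mmu-miR-411-3p: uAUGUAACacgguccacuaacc
mmu-miR-434-3p: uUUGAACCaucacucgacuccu

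The next set holds the members with the smallest unadjusted p between genotypes that are not shown above, followed by the 3 members with a lower mean in knockout, from miR-668-3p onward. miR-376c-3p belongs with them and is given by name.

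mmu-miR-543-3p: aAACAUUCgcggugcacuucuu
mmu-miR-376b-3p: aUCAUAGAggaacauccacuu
mmu-miR-376b-5p: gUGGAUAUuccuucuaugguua
mmu-miR-431-5p: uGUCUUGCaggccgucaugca
mmu-miR-136-3p: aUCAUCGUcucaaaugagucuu
mmu-miR-381-3p: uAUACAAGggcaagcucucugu
mmu-miR-299a-3p: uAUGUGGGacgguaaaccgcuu
mmu-miR-668-3p: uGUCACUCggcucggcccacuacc
mmu-miR-409-5p: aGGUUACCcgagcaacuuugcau
mmu-miR-370-3p: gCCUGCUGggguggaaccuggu

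Members were alike in length, from 19 to 25 bases, and unlike in seed. The 46 sequences held 46 different seeds, and no pair shared bases 2 to 7, so members sorted into no seed family among themselves. The first base was U in 19 members, A in 18, G in 6 and C in 3, and GC content ran from 23.8% to 68.2%. A seed shared with another miRNA of the table was found for 7 members. In 2 cases the partner was well counted: miR-411-3p shares its seed with miR-379-3p, the minor arm of the neighbouring hairpin, and miR-329-3p shares its seed with miR-362-3p of chromosome X, as the following sequences show.

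mmu-miR-379-3p: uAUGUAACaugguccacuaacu
mmu-miR-329-3p: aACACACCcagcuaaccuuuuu
mmu-miR-362-3p: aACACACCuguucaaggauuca

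miR-362-3p, on the minus strand at chrX:7241984-7242005, had 6860 counts over all libraries, against 233 for miR-329-3p. Most reads that carry this seed in these hearts were therefore from outside the cluster. The 5p seeds of the neighbours miR-379-5p and miR-411-5p end alike but are not the same.

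Some members resemble each other along their whole length, which bears on how the authors' counting could split reads between them. miR-300-3p and miR-381-3p differ at 3 of 22 bases, miR-376a-3p and miR-376b-3p at 3 of 21, miR-495-3p and miR-543-3p at 4 of 22, and miR-154-3p and miR-369-3p at 4 of 21. The partners not printed above are these.

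mmu-miR-300-3p: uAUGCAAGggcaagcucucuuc
mmu-miR-376a-3p: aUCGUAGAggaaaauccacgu
mmu-miR-495-3p: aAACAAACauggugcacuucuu
mmu-miR-154-3p: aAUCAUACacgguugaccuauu

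In each of these pairs at least 1 difference falls in the seed, so the partners have different seeds. No tested member had counts identical to those of another row. The hairpins of the miR-376 group are known substrates of adenosine-to-inosine editing, and how edited reads were counted is not given in the sources used here.

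The hairpins fell into 2 blocks, separated by a gap of 90723 bp, while the next widest gap was 16111 bp. The upstream block, chr12:109571990-109618336, held 12 hairpins and 15 members. The downstream block, chr12:109709060-109743795, packed 28 hairpins and 34 members into 34736 bp, with a median gap of 885 bp between neighbours against 1590 bp upstream. By GENCODE M21, the hairpins of miR-431, miR-433, miR-127, miR-434 and miR-136 lie opposite an exon of Rtl1, whose messenger RNA they match perfectly as antisense transcripts. miR-341 and miR-370 lie in an intron of Rian, and the last 10 hairpins, from miR-382 to miR-410, lie in exons or introns of Mirg. The other hairpins overlap no annotated gene on their strand.

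The transcripts that hold the members are thought to share the Meg3 start. The promoter of Meg3 is shown here, on the plus strand at chr12:109540746-109541045 (RefSeq, GRCm38.p6). It runs from 250 bases before to 50 after the start, with the one match to the palindrome TGACGTCA in capitals. This is the first of 2 Meg3 starts in the RefSeq promoter table, and the window of the other, chr12:109545148-109545447, holds 0 matches.

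Meg3 promoter: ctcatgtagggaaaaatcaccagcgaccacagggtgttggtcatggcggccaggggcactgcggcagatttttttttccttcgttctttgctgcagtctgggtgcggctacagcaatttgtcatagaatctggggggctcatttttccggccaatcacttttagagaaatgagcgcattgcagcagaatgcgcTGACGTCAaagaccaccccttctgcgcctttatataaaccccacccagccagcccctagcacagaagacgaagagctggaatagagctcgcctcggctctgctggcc

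TGACGTCA is the cyclic AMP response element and reads the same on both strands. Its match begins 57 bases before this start. The same letters occur in 588 of 32851 RefSeq promoters of this length, or 1.79%. No binding was measured here, and the match is a description only.

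The libraries held between 7526091 and 18369483 counts, with 678 to 785 miRNAs detected in each. Levels are given as CPM, the count relative to a library total that was scaled by a TMM factor, and these factors ran from 0.790 to 1.22. At these totals a count of 0 allows up to 0.163 to 0.399 CPM (3 counts of the unscaled total), for counting error only. CPM counts reads, and how evenly the library chemistry captures different miRNAs was not tested, so levels of different members are compared as reads.

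The cluster was a minor share of heart miRNA and was led by miR-379-5p. Of the 49 members, 44 had counts in all 10 libraries. Averaged over the libraries, 5 members were at 100 CPM or more, 21 at 10 to 100, 16 at 1 to 10, and 7 below 1. The median of the 49 members was 12.4 CPM, against 0.329 CPM over all 1139 miRNAs. Among those with enough counts to be tested, the median was 17.7 CPM for 42 members and 20.2 CPM for all 457. The 8 leading members held 76.0% of the reads of the 49. Of the summed level, 81.2% came from the downstream block and 18.8% from the upstream block.

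**Figure D1:**
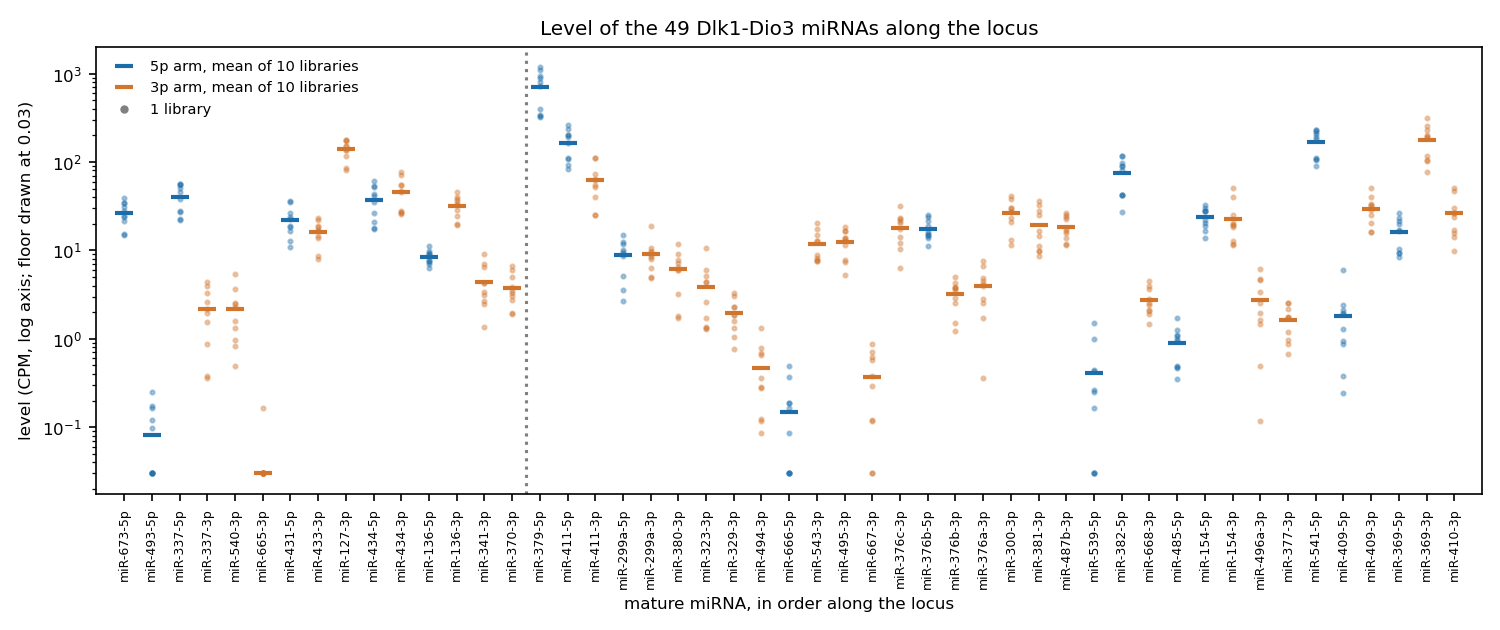
Level of each of the 49 members (CPM, log axis) in order along chromosome 12, with 1 point per library, bars for the mean of 10 libraries, and a dotted line at the 90723 bp gap. miR-379-5p, first of the downstream block, stands highest at a mean of 699 CPM, and 7 members lie below 1 CPM.

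miR-379-5p (hairpin at chr12:109709060-109709125) averaged 699 CPM and ranked 63 among the 1139 miRNAs. It alone held 34.7% of the reads of the members, 56.3 times the level of the median member, and was the highest member in every library. Below it, levels lay close together. miR-369-3p averaged 179 CPM (SD in each group below), miR-541-5p 168, miR-411-5p 166 and miR-127-3p 138 CPM. miR-369-3p exceeded miR-541-5p in 6 of 10 libraries, miR-541-5p exceeded miR-411-5p in 6, and miR-411-5p exceeded miR-127-3p in 7, so the order of these 4 was not the same across libraries. miR-127-3p was above miR-382-5p (75.0 CPM) in 10 of 10. miR-382-5p was above miR-411-3p (61.8 CPM) in 9, and miR-411-3p was above miR-434-3p (45.8 CPM) in 8.

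At the low end, 7 members had too few counts to be tested. miR-485-5p had 103 counts over all libraries, miR-494-3p had 56, miR-539-5p 54, miR-667-3p 46, miR-666-5p 16, miR-493-5p 11 and miR-665-3p 3. The last was counted in a single library. The group includes miR-494-3p, which is often studied in the heart, and here its highest level was 1.32 CPM, in control replicate 2.

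The hairpins kept different arms. Both arms were rows of the table for 36 of the 40 hairpins, and the 3p arm had more reads in 24 and the 5p arm in 12. The bias was near total in miR-382, where 99.9% of 9139 reads came from the 5p arm, and in miR-381 and miR-300, where the 5p arm gave 0.170% and 0.287%. miR-127 gave 0.938% of its reads from the 5p arm and miR-379 gave 96.4%. Other hairpins kept both arms: the 5p share was 51.8% for miR-154, 49.5% for miR-299a, 44.6% for miR-434 and 73.2% for miR-411. Members numbered 31 from 3p arms and 18 from 5p arms, but the 5p members carried 65.0% of the summed level, in which miR-379-5p weighs most.

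The design has 1 comparison, CITED4 knockout against floxed control in hearts under pressure load. The summed level of the 49 members was 2537, 2163, 1252, 1088 and 1061 CPM in control replicates 1 to 5. In knockout replicates 1 to 5 it was 3045, 3102, 2178, 1295 and 2446 CPM. Control replicates 1 and 2 lay among the knockouts, knockout replicate 4 lay among the controls, and the groups overlapped. The means were 1620 ± 683 CPM for controls and 2413 ± 738 CPM for knockouts (SD, n = 5 each), a ratio of 1.49. As a share of all counts, without scaling factors, the members took 0.163% ± 0.0862 and 0.259% ± 0.104. No test is given for a sum over members chosen with these results known.

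**Figure D2:**
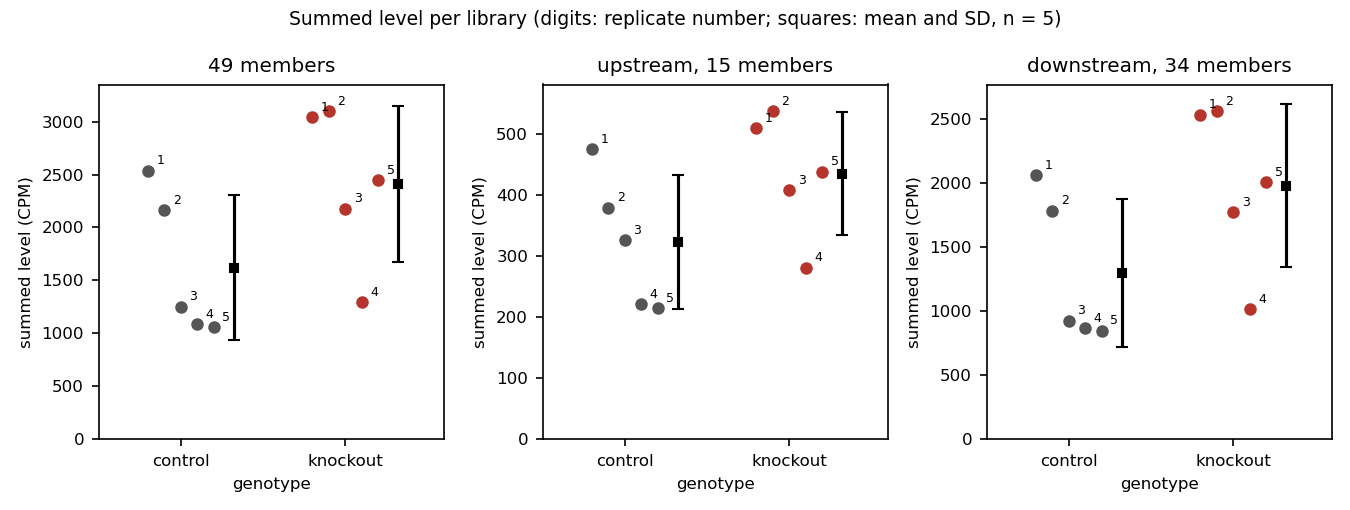
Summed level (CPM) of all members, of the upstream block and of the downstream block in each library, with digits for replicate numbers and squares with bars for mean and SD (n = 5). In each panel the groups overlap, with control replicates 1 and 2 high and knockout replicate 4 low.

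The means of both blocks were higher in knockout, and the groups overlapped in each. The upstream block summed to 323 ± 110 CPM in the controls and 435 ± 101 CPM in the knockouts, a ratio of 1.34. The downstream block summed to 1297 ± 581 and 1979 ± 638 CPM, a ratio of 1.53. The downstream level divided by the upstream level was 4.34, 4.71, 2.84, 3.91 and 3.95 in control replicates 1 to 5. In knockout replicates 1 to 5 this quotient was 4.98, 4.77, 4.35, 3.61 and 4.59. Control replicate 3 was the lowest of all libraries and the groups overlapped, at 3.95 ± 0.70 and 4.46 ± 0.53. Without miR-379-5p the quotient was 2.32 ± 0.299 and 2.55 ± 0.211. The share of miR-379-5p within the members was 32.4% ± 4.37 in controls and 34.7% ± 3.04 in knockouts.

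Member by member, 42 of the 49 had enough counts for edgeR's quasi-likelihood test, and none passed it. At an adjusted p of 0.05 (Benjamini-Hochberg over 457 miRNAs), 0 of 42 members and 0 of 457 miRNAs were called, or 0% of those tested. Adjusted p ran from 0.641 to 0.900 over the members. Fitted log2 fold changes were positive in 39 and negative in 3, where 53.2% of all tested miRNAs had a positive one. Their median was 0.48 (1.40-fold), against 0.03 over all tested miRNAs. With library totals in place of scaling factors the positive share of all tested miRNAs was 64.8%, with medians of 0.57 for members and 0.14 for all.

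At an unadjusted p under 0.05 stood 10 members, all with a higher mean in knockout, where 2.84% of all tested miRNAs met this in the same direction and 6.35% in either. This count changed with single libraries. Without control replicate 1 it was 27, and without knockout replicate 4 it was 21, where 84 of 466 and 65 of 467 tested miRNAs met it in either direction. It was 6, 3 and 3 without control replicate 3, 4 or 5, beside 16 of 469, 10 of 462 and 6 of 468 tested miRNAs. It was 4, 1 and 6 without knockout replicate 1, 2 or 5, beside 8 of 463, 13 of 465 and 18 of 465. In no member were the 5 knockout values clear of the 5 control values, and over all tested miRNAs this held for 3, or 0.656%. The 95% interval of the log2 fold change held 0 in 32 members, and its median half-width was 0.68, against 0.53 over all tested miRNAs.

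**Figure D3:**
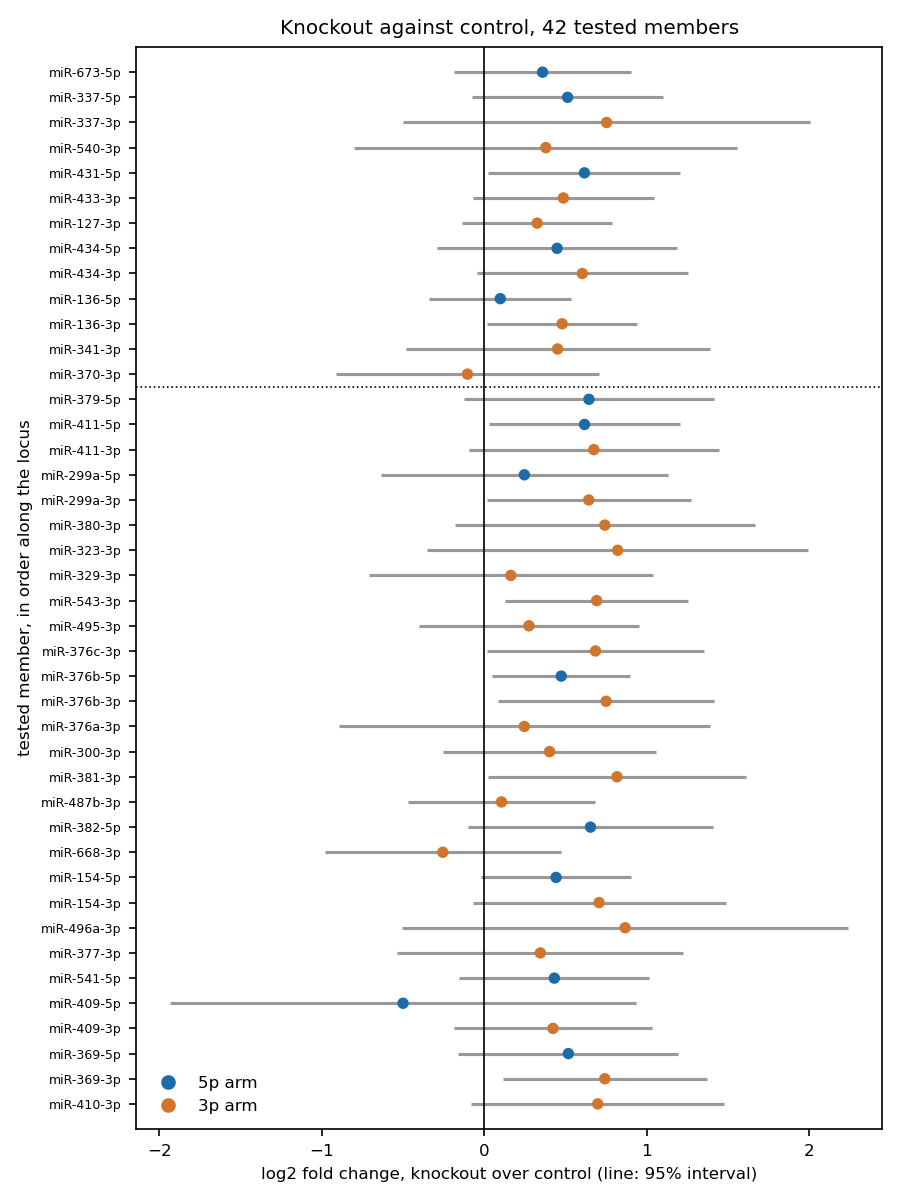
Log2 fold change of knockout over control for the 42 tested members in order along the locus, with 95% intervals from edgeR's fit; blue points are 5p arms, orange points 3p arms, and the dotted line marks the gap between blocks. Points lie right of 0 for 39 members, and 32 intervals cross 0.

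Along the locus the fitted log2 fold changes ran from -0.50 to 0.87 and were mostly positive. Median log2 fold changes were 0.45 over the 13 tested upstream members, 12 of them positive, and 0.62 over the 29 downstream members, 27 of them positive. The 7 members antisense to Rtl1 were all positive, with a median of 0.48. The 12 tested members in Mirg had 10 positive and a median of 0.48, and the 17 between miR-379 and miR-539 had 17 positive and a median of 0.64. The 14 tested 5p members and the 28 tested 3p members had medians of 0.46 and 0.55. Differences between these groups of members were not tested.

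Among the abundant members, miR-379-5p was at 932, 799, 335, 337 and 325 CPM in control replicates 1 to 5 and at 1176, 1088, 720, 396 and 885 CPM in the knockouts 1 to 5. Control replicates 1 and 2 were more than double the other controls and above knockouts 3 and 4. Its log2 fold change was 0.64 ± 0.36 (SE), with a 95% interval from -0.12 to 1.41 (edgeR quasi-likelihood, adjusted p = 0.64). miR-369-3p (chr12:109743418-109743496, in an exon of Mirg) was at 192, 189, 77.1, 106 and 103 CPM in the controls and 255, 311, 203, 117 and 231 CPM in the knockouts. All knockouts but replicate 4 were above every control. Its log2 fold change was 0.74 ± 0.29, with an interval from 0.11 to 1.37 and edgeR p-values of 0.024 unadjusted and 0.64 adjusted.

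miR-541-5p, also in Mirg, was at 229, 182, 90.2, 107 and 106 CPM in the controls and 209, 231, 193, 112 and 219 CPM in the knockouts. Control replicate 1 was above 4 of the 5 knockouts, and the log2 fold change was 0.43 ± 0.27. miR-411-5p (chr12:109710175-109710256) was at 203, 166, 108, 83.0 and 93.1 CPM in the controls and 236, 260, 193, 112 and 203 CPM in the knockouts. Control replicates 1 and 2 lay within the range of the knockouts, and the log2 fold change was 0.62 ± 0.27, with edgeR p-values of 0.042 unadjusted and 0.64 adjusted. Its other arm, miR-411-3p, was at 73.7, 61.7, 52.4, 24.9 and 25.0 CPM in the controls and 112, 110, 54.8, 39.7 and 64.3 CPM in the knockouts. Knockouts 1 and 2 stood above all other libraries, and the log2 fold change was 0.67 ± 0.36.

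miR-127-3p (chr12:109592846-109592915), antisense to Rtl1 and the member best known for silencing it in the placenta, varied least of the abundant ones. It was at 174, 137, 136, 84.8 and 81.6 CPM in the controls and 175, 177, 153, 115 and 150 CPM in the knockouts. Control replicate 1 was level with the highest knockouts, and the log2 fold change was 0.33 ± 0.21. miR-382-5p was at 97.0, 81.8, 27.1, 42.2 and 42.8 CPM in the controls and 117, 118, 90.9, 41.9 and 90.5 CPM in the knockouts. Knockout replicate 4 was at the level of controls 4 and 5, and the log2 fold change was 0.65 ± 0.35. miR-434-3p was at 55.4, 45.9, 27.6, 26.0 and 26.8 CPM in the controls and 71.0, 77.6, 46.5, 26.1 and 55.5 CPM in the knockouts. Its log2 fold change was 0.60 ± 0.30, and that of its 5p arm was 0.45 ± 0.34.

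Other members with a small unadjusted p were less abundant. miR-543-3p (chr12:109717258-109717333) was at 12.9, 8.18, 7.72, 7.53 and 8.85 CPM in the controls and 17.2, 20.5, 12.8, 7.59 and 15.1 CPM in the knockouts. It had the smallest unadjusted p of the members, 0.020, with a log2 fold change of 0.69 ± 0.26 (edgeR adjusted p = 0.64). Its near relative miR-495-3p, chosen after its values were seen, was at 13.6, 16.5, 13.2, 5.31 and 7.39 CPM in the controls and 13.8, 18.6, 11.6, 7.78 and 16.4 CPM in the knockouts. There the groups overlapped over most of their range, and the log2 fold change was 0.28 ± 0.31. miR-410-3p, linked to Cited2 like miR-495-3p and also chosen after its values were seen, was at 30.3, 26.7, 17.0, 15.6 and 9.82 CPM in the controls and 50.5, 46.4, 24.0, 14.3 and 26.7 CPM in the knockouts. Knockouts 1 and 2 were highest, knockout 4 lay below 4 of 5 controls, and the log2 fold change was 0.70 ± 0.36.

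The hairpins of miR-376c, miR-376b and miR-376a are neighbours, at chr12:109722718-109722803, chr12:109723458-109723539 and chr12:109723781-109723848. miR-376b-3p was at 3.73, 2.90, 1.52, 1.23 and 2.55 CPM in the controls and 4.29, 3.83, 3.60, 4.94 and 3.73 CPM in the knockouts. Here knockout replicate 4, low in most members, was the highest library, and the log2 fold change was 0.75 ± 0.31. miR-376b-5p was at 18.7, 13.8, 11.2, 14.7 and 14.8 CPM in the controls and 16.2, 23.8, 24.9, 15.4 and 21.4 CPM in the knockouts. All 5 knockouts were above the control mean, control replicate 1 was above 2 knockouts, and the log2 fold change was 0.47 ± 0.20. miR-376c-3p was at 17.2, 22.5, 12.1, 10.4 and 6.30 CPM in the controls and 23.1, 32.1, 21.2, 14.1 and 20.1 CPM in the knockouts. Its log2 fold change was 0.68 ± 0.31, and all 5 knockouts were again above the control mean. That held for 4 members in all, namely these 3 and miR-433-3p, and for 20 of the 457 tested miRNAs, or 4.38%.

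Of the miRNAs antisense to Rtl1, miR-431-5p was at 26.5, 19.0, 18.3, 12.7 and 10.8 CPM in the controls and 35.2, 35.9, 23.7, 16.6 and 22.9 CPM in the knockouts. Knockouts 1 and 2 were above every control, and the log2 fold change was 0.62 ± 0.27. miR-136-3p was at 28.3, 33.2, 32.6, 19.6 and 19.4 CPM in the controls and 36.5, 46.2, 40.5, 24.5 and 38.2 CPM in the knockouts. All knockouts but replicate 4 were above every control, and the log2 fold change was 0.48 ± 0.21. Its other arm, miR-136-5p, was nearly level across libraries, from 6.26 to 11.0 CPM, with a log2 fold change of 0.10 ± 0.20.

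In the middle of the downstream block, miR-381-3p was at 25.0, 14.7, 11.1, 9.75 and 8.73 CPM in the controls and 27.6, 32.7, 36.2, 9.78 and 16.3 CPM in the knockouts. Knockout replicate 4 was within the low controls, and the log2 fold change was 0.82 ± 0.37. miR-299a-3p was at 8.84, 8.35, 7.96, 4.94 and 4.85 CPM in the controls and 10.6, 18.7, 9.60, 6.36 and 9.76 CPM in the knockouts. Its log2 fold change was 0.64 ± 0.29, and that of miR-299a-5p was 0.25 ± 0.41. The 10 members with an unadjusted p under 0.05 were all at an edgeR adjusted p of 0.64, while miR-136-5p and miR-299a-5p were at 0.83 and 0.79.

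The 3 members with a lower mean in knockout were rare. miR-668-3p was at 2.08, 3.96, 2.11, 4.44 and 2.42 CPM in the controls and 1.48, 2.55, 2.84, 1.90 and 3.67 CPM in the knockouts, a log2 fold change of -0.26 ± 0.34. miR-370-3p, in an intron of Rian, was at 6.07, 5.01, 3.04, 3.46 and 1.94 CPM in the controls and 6.60, 3.83, 3.28, 1.90 and 2.74 CPM in the knockouts, a log2 fold change of -0.10 ± 0.37, which turned to 0.018 with library totals only. miR-409-5p was at 1.30, 5.98, 2.11, 0.864 and 0.242 CPM in the controls and 2.39, 1.96, 0.379, 0.949 and 1.92 CPM in the knockouts, a log2 fold change of -0.50 ± 0.66. That value rested on control replicate 2 and was 0.43 without it. miR-370-3p also turned sign, to 0.14, without control replicate 1. The groups overlapped in all 3. The more abundant arm of the last hairpin, miR-409-3p, was at 25.2 ± 8.40 CPM in the controls and 33.8 ± 12.1 CPM in the knockouts, a log2 fold change of 0.42 ± 0.28.

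Arm use did not pass a test between genotypes. The log2 ratio of 5p to 3p reads was compared with limma over 136 hairpins of the table with both arms counted well enough. None passed at an adjusted p of 0.05 (0% of 136), and 3, or 2.21%, had an unadjusted p under 0.05. None of those 3 was among the 15 hairpins of the cluster. miR-369, with 8.24% of its reads from the 5p arm, was at -3.16, -3.47, -3.03, -3.32 and -3.57 in controls and -3.44, -3.55, -3.60, -3.62 and -3.55 in knockouts. Its knockout values lay close together at the low end of the controls, with a difference of -0.24 ± 0.16 (SE) and a limma adjusted p of 0.93. miR-136 was at -1.59, -2.23, -1.83, -1.31 and -1.34 in controls and -2.04, -2.20, -1.86, -1.93 and -2.35 in knockouts. The groups overlapped, with a difference of -0.42 ± 0.22, an interval from -0.90 to 0.06 and a limma adjusted p of 0.91. For miR-379 the ratio was 4.68 ± 0.54 in controls and 4.74 ± 0.18 in knockouts, a difference of 0.06 with an interval from -0.46 to 0.58. For miR-434 the interval was -0.45 to 0.30, and for miR-411 it was -0.50 to 0.39.

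Members varied together within each genotype. Each library's log2 CPM was taken as its deviation from its group mean, and Pearson's r was computed over the 10 libraries for each pair of the 42 tested members. These values are descriptive, since the points share libraries, depth and scaling. The median r of 861 pairs was 0.73, from -0.63 to 0.99, and 78.4% of pairs were above 0.5. Over all pairs of the 457 tested miRNAs the median was -0.005 and 16.1% of pairs were above 0.5. Among members at 5 CPM or more, 30 in number, the median was 0.80 with 89.7% above 0.5, against 0.00 and 19.3% for all 335 such miRNAs. Pairs within the upstream block had a median of 0.77, pairs within the downstream block 0.71, and pairs across the 90723 bp gap 0.75.

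**Figure D4:**
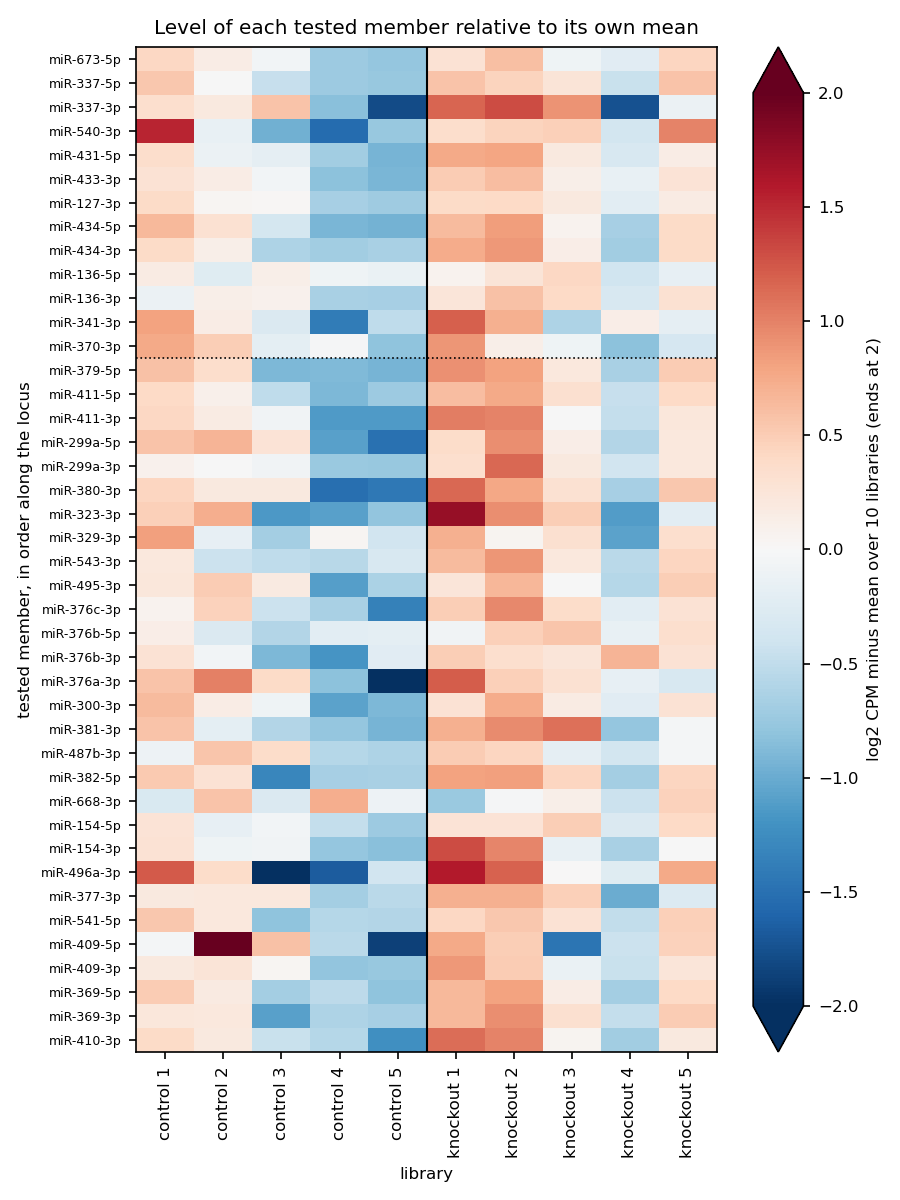
Log2 CPM of each tested member minus its mean over 10 libraries, in order along the locus, with a solid line between genotypes and a dotted line between blocks. Control replicates 1 and 2 and knockouts 1, 2 and 5 are mostly red (above the mean), while controls 4 and 5 and knockout replicate 4 are mostly blue.

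Several libraries were high or low from one end of the locus to the other, but control replicate 3 was not. It was the lowest of all libraries in miR-369-3p, at 77.1 CPM. In miR-136-3p it was at 32.6 CPM, near the highest control at 33.2 CPM. Among knockouts, replicate 4 was lowest in 37 of the 42 tested members, and replicate 1 or 2 was highest in 35. Among controls, replicate 1 or 2 was highest in 40 and replicate 4 or 5 lowest in 33. The members that tracked the rest most closely were miR-411-5p, with a median r of 0.85 with the other members, miR-434-5p at 0.85 and miR-411-3p at 0.84. Those that did so least were miR-668-3p at -0.09, miR-376b-3p at 0.30, miR-376b-5p at 0.31 and miR-136-5p at 0.43. Arms of a hairpin ran from an r of 0.96 in miR-369 and miR-434 to 0.01 in miR-376a and -0.24 in miR-127, whose 5p arm was at 1.36 CPM on average. The spread of a member within a genotype was larger than usual, with a median SD of 0.58 on the log2 scale against 0.39 over all tested miRNAs. From the lowest to the highest library the median member differed 3.60-fold, against 2.40-fold over all tested miRNAs. A wide range was not particular to the locus. The summed level differed 2.92-fold for the members and 3.29-fold for the list of fibroblast miRNAs described below.

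Rows of the locus outside the 49 were mostly minor arms. Of 43 such rows, 8 had enough counts to be tested, 7 had a positive and 1 a negative log2 fold change, and 0 passed, with a median of 0.49. The best counted was miR-134-5p, at 42.5 ± 12.2 CPM in the controls and 63.9 ± 25.1 CPM in the knockouts, a log2 fold change of 0.59 ± 0.29. miR-379-3p, the minor arm of the leading member, was at 30.5, 23.4, 24.8, 12.8 and 10.3 CPM in the controls and 44.9, 48.5, 27.2, 14.2 and 27.7 CPM in the knockouts. Controls 4 and 5 and knockout 4 were lowest, as for many members, with a log2 fold change of 0.67 ± 0.35. miR-127-5p was level, at 1.36 ± 0.37 and 1.37 ± 0.37 CPM.

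Lists of miRNAs used as marks of heart cell types were read in the same libraries. Which cells made them in these hearts was not measured. A list of 8 fibroblast miRNAs (miR-21a, miR-199 and miR-214 arms, of which miR-199a-3p and miR-199b-3p share all their counts) moved with the cluster. Both of these rows were added, so the same reads enter every sum, share, ratio and quotient of this list under both names. Sums with these reads under a single name are not given. The list summed to 130799, 120560, 48980, 56450 and 47451 CPM in control replicates 1 to 5 and to 117724, 155903, 98014, 64361 and 135846 CPM in knockout replicates 1 to 5. The 4 libraries with the lowest sums, controls 3, 4 and 5 and knockout 4, were the 4 lowest for the cluster as well. In the list, 8 of 8 rows had a higher mean in knockout, but those of miR-199a-3p and miR-199b-3p are not separate measurements. miR-21a-5p, which is known to rise with fibrosis, made up 66.5% of the list. Set against this list, the members came to 19.4, 17.9, 25.6, 19.3 and 22.4 CPM per 1000 CPM in the controls and 25.9, 19.9, 22.2, 20.1 and 18.0 in knockouts. On that scale the groups overlapped, at 20.9 ± 3.06 and 21.2 ± 2.99, a ratio of 1.02. The ratio of the summed CPM, knockout to control, was 1.49 for the members and 1.41 for the list itself. Per 1000 CPM of the cardiomyocyte list described next, the members came to 5.34 ± 3.46 in controls and 8.86 ± 4.72 in knockouts, a ratio of 1.66, with groups that overlapped. Both quotients were computed after the values were seen, and no cause was tested with them.

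**Figure D5:**
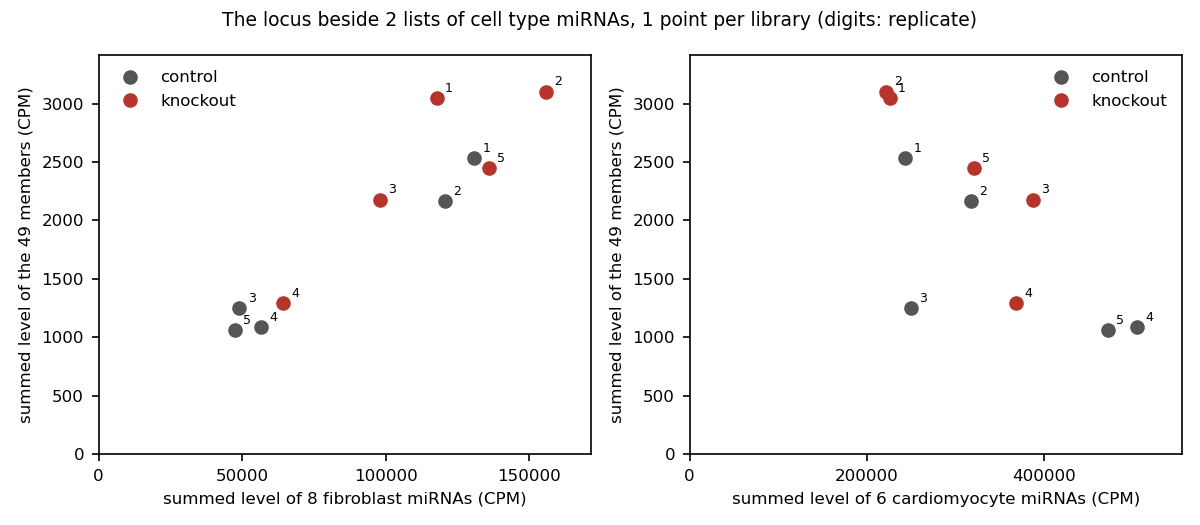
Summed level of the 49 members (CPM) against the summed level of 8 fibroblast miRNAs (left) and 6 cardiomyocyte miRNAs (right), also in CPM, with 1 point per library and digits for replicate numbers. Controls 3, 4 and 5 and knockout 4 are lowest on both axes of the left panel. The fibroblast sum adds both miR-199a-3p and miR-199b-3p, which share all their counts.

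A list of 6 cardiomyocyte miRNAs, 98.4% of it miR-1a-3p, ran the other way in several libraries. It summed to 242925, 317234, 249390, 504570 and 471274 CPM in the controls and 225518, 220847, 387114, 368029 and 320618 CPM in the knockouts, and 1 of 6 had a higher mean in knockout. Controls 4 and 5 were highest in it and lowest in the cluster, while control 3 was low in both. miR-1a-3p averaged 325580 CPM, so a library rich in it leaves fewer reads for all other miRNAs. How much this adds to the opposite course, and to the quotient per 1000 CPM of this list, was not tested. Endothelial miRNAs summed to 26220 to 35318 CPM in the controls and 25223 to 34443 CPM in the knockouts, with 0 of 2 higher in knockout. Smooth muscle miRNAs ran from 28036 to 33833 and from 26423 to 33145 CPM (1 of 3 higher), and leukocyte miRNAs from 1562 to 1593 and from 1386 to 1762 CPM (2 of 5 higher). The 3 erythroid miRNAs measured ran from 13759 to 33016 and from 11532 to 25240 CPM, with 0 of 3 higher. Most of that sum was miR-486a-5p, at 20129 CPM on average, beside 398 for miR-144-3p and 211 for miR-144-5p. The part of these lists in the result for the cluster was not tested.

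The locus is also strongly expressed in brain and pituitary, so markers of nerve and endocrine cells were read too. miR-124-3p, the defining neuronal miRNA, had 0 counts in all 10 libraries. miR-9-5p, which is found beyond neurons, was at 316 ± 76.9 and 327 ± 114 CPM, and 2 of 4 neuronal miRNAs had a higher mean in knockout. Of the endocrine miRNAs, miR-7a-5p was at 156 ± 36.1 and 210 ± 61.4 CPM and miR-375-3p at 2.57 ± 0.90 and 2.20 ± 0.64 CPM. The skeletal muscle miRNA miR-206-3p was at 18.1 ± 4.47 and 19.5 ± 4.42 CPM.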

How the data were processed

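The authors deposited 2 tables of 1139 mature mouse miRNAs in 10 libraries. One holds raw counts of reads for each miRNA, deposited without normalization. The other holds a linear signal that the authors made by dividing those counts by a DESeq2 size factor for each library, as its values show. All of its values came out as whole reads when multiplied back (relative deviation at most 5.1e-15), and a count test on them is the test on the raw counts. Per the submitters' processing notes, the tools were cutadapt 1.10, Bowtie, STAR and DESeq2 with the build GRCm38, and their roles are not listed. Which miRNA annotation was used, how multiply matching reads were assigned and whether molecular identifiers were read is not given in the sources used here, so intervals cover counting error or the spread between libraries only.

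Columns were matched to libraries through titles. Counts of any pair of libraries of a group differed far beyond sampling noise (lowest chi-square over its degrees of freedom 108 in controls and 210 in knockouts), so no library was taken for a copy of another. This does not show that they came from separate animals. filterByExpr of edgeR 4.0.16 (R 4.3.3) kept 457 of 1139 miRNAs and 42 of 49 members. The genotypes were compared by edgeR's quasi-likelihood test with TMM factors and no covariate, and p-values were adjusted by Benjamini-Hochberg over all 457 at a threshold of 0.05. CPM uses TMM-scaled totals, and log2 CPM a prior count of 2. Log2 arm ratios, with 2 reads added to each arm, were compared with limma 3.58.1 over 136 hairpins. The fits were checked on simulated counts, drawn with a fixed dispersion and independently for each miRNA. Such a check does not measure their power or error rate in these libraries. Positions and sequences are from RefSeq on GRCm38.p6 (1 hairpin, Mir666, by the span of its mature arms) and host genes from GENCODE M21.

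The members, the cell type lists and the rule for naming were chosen with earlier results of these data known. The rule names the 8 most abundant members, the 10 with the smallest unadjusted p, those with a lower mean, members whose groups do not overlap and second arms of these hairpins. Alternatives were other scaling factors, DESeq2 1.42.0, limma on the deposited normalized signal, 2 other filters, identical rows used once, another prior count, a permutation test of arm ratios, a replicate block and each library left out.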

Additional observations from a re-analysis of the deposited data

Results flagged for a closer look

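For 39 values, namely the levels of the named members and of their second arms, the arm ratios and the summed levels, each genotype was searched for a library far from the other 4. In 2 of 78 groups such a library was found, its gap to the nearest one divided by the range of the group exceeding Dixon's 95% limit of 0.71, while chance alone gives about 3.9. miR-543-3p stood at 12.9 CPM in control replicate 1, and the other controls ran from 7.53 to 8.85 CPM (gap over range 0.755). That library was also the highest control in the summed level of the cluster. Knockout replicate 3 had a log2 ratio of 5p to 3p reads of -5.65 for miR-409, while the other knockouts lay between -4.32 and -4.02 (gap over range 0.814). The 5p arm of that hairpin was at 0.379 CPM in this library.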

How the results depend on the processing

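The count of 0 members and 0 miRNAs past the threshold was the same in all 18 alternative fits, with a smallest adjusted p from 0.153 to 0.993 over all of them. Of 463 alternative values of named members and second arms, 450 kept their direction, as did 111 of 117 arm ratio differences. miR-370-3p was at 0.018 with library totals only. miR-127-5p was at -0.0064 with limma on normalized values and at -0.0053 with the replicate block. With 1 library left out, the log2 fold change ran from -0.39 to 0.14 for miR-370-3p, from -0.76 to 0.43 for miR-409-5p and from -0.12 to 0.19 for miR-127-5p. The arm ratio difference then ran from -0.17 to 0.16 for miR-379 and from -0.17 to 0.042 for miR-411. The cause was not tested. Taken as a mean of log2 CPM instead of a sum, the downstream to upstream quotient was 1.00 in controls and 1.06 in knockouts.

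The number of members at an unadjusted p under 0.05, 10 of 42, was 14 of 49 with DESeq2, 23 of 49 with no filter, 8 of 30 with the stricter filter (5 CPM in 5 libraries), 8 of 42 with limma, 4 with library totals only and 1 to 27 with 1 library left out. Over all miRNAs, 29 of 457 became 45 and 102 of 1105, 21 of 337, 22, 14 and 6 to 84. The labels do not say what a replicate number marks. The deviations of same-number libraries correlated at 0.45, 0.38, -0.08, 0.40 and -0.12 for numbers 1 to 5, and the best match of 4 of the 10 libraries was the one with the same number. The numbers were not taken as pairs, since the labels do not say what they mark. The correlations, positive for numbers 1, 2 and 4 and negative for 3 and 5, do not settle this choice. Read by number all the same, the summed level was higher in knockout in 5 of 5. With the replicate block 27 members and 72 miRNAs had an unadjusted p under 0.05, 0 passed, and the smallest adjusted p was 0.153. Without 1 library the summed ratio of knockout to control ran from 1.37 to 1.73. Depth limits the 7 untested members, the rarest of which had 3 counts.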
